A study of Mus musculus with 6 samples.

Results

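Genes of the enteric nervous system were followed in the colon of Islr knockout and control mice: Elavl4, Uchl1, Ret, Nos1, Vip and Chat for neurons, and S100b and Sox10 for glia. These 8 genes were chosen by name, out of 23462 named genes on the array, and 13 probes matched them. The enteric nervous system is a network of neurons and supporting glia within the gut wall. Its neurons sit in ganglia between the muscle layers and under the mucosa, and they drive or relax the smooth muscle, blood vessels and epithelium around them. Motor neurons that contract the muscle use acetylcholine, and those that relax it use nitric oxide and vasoactive intestinal peptide. Both neurons and glia descend from neural crest cells that enter the gut before birth, a step that needs the receptor RET and the transcription factor SOX10.

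Whole-genome expression was measured on 6 single-colour Agilent arrays, 1 per animal, with RNA from the colon of 3 control mice and 3 mice with a knockout of Islr, all male. Islr encodes a secreted protein with leucine-rich repeats and an immunoglobulin domain. The sample source states that the mice of both genotypes drank 3.5% dextran sulfate sodium (DSS, which injures the colon lining) over 5 days and were sampled after 1 day of recovery, whereas the treatment field names no treatment. The labels give neither age nor strain, nor the Cre driver or deleted part of the knockout, and they define the control only by that word and by "WT" in the titles. The design text says that the samples were separated by flow into Trizol without naming a sorted population, and epithelial, muscle and neuronal genes were all measured.

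Values are log2 processed signals relative to the 75th percentile of the same array, so 0 is that percentile and -1 is 2-fold below it. The 75th percentile was 6352.7 to 7110.5 signal units on the control arrays and 4910.5 to 5820 on the knockout arrays, and 69.4% to 75.4% of spots were well above background. Controls and knockouts lay in different rows of 1 slide, so row and genotype cannot be told apart. Islr itself, which checks the labels, was at 1.57, 1.24 and 1.21 in the controls and -1.40, -0.93 and -1.31 in the knockouts, a difference of -2.44 (SE 0.21, adjusted p = 0.0171 by limma), or 5.42-fold lower; the first control spot is outlier-marked and not part of that difference.

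The promoters shown here include those of Vip and Uchl1, the members with a promoter entry whose knockouts all lay below the controls. Neither gene passed the test, and 17.6% of all probes showed that order with outlier-marked spots kept. The other promoters shown are those of Calca and Npy, the neuropeptide genes that passed the test. Each is the 250 bases before the annotated start, 5′ to 3′, from RefSeq on mouse build GRCm38.p6. Capitals mark matches, as read on the strand shown, to TGACG (the core of a cAMP response element), TATAAA (where the basal factor TBP binds) and GGGCGG (where Sp1 binds). The Vip promoter lies at chr10:5638968-5639217 on the plus strand, that of Uchl1 at chr5:66675871-66676120 on the plus strand, that of Calca at chr7:114636358-114636607 on the minus strand and that of Npy at chr6:49822460-49822709 on the plus strand.
Vip: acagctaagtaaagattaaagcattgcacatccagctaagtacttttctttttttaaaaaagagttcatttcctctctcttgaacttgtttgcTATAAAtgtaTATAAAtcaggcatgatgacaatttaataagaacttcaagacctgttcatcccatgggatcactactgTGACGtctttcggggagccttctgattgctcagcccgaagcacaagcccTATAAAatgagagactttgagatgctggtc
Uchl1: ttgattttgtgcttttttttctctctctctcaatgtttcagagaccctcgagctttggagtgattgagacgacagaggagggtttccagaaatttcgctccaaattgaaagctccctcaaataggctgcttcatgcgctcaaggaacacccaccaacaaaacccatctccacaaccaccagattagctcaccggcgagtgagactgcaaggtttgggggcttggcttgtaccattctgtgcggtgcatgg
Calca: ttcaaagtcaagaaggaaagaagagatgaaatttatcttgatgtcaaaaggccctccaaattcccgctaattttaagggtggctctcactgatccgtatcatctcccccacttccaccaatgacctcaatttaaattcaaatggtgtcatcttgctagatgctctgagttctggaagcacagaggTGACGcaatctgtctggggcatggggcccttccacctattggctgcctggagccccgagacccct
Npy: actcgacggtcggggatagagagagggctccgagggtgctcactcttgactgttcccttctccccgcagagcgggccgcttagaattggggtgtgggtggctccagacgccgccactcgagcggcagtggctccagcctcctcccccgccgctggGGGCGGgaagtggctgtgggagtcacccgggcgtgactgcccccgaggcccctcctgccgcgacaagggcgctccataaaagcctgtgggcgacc

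The Vip promoter held TGACG at 79 to 75 bases before the start and TATAAA at 3 places, the nearest at 30 to 25 bases. The Calca promoter held TGACG at 65 to 61 bases before the start, and that of Npy held GGGCGG at 95 to 90 bases. The Uchl1 window held none of the 3 motifs on either strand. On the opposite strand TGACG matched once in the Nos1 window, once in that of Chat and once in 3 of the 4 Elavl4 entries. Some of these Elavl4 windows overlap and share the same site, so their matches are not all separate. Of all 32851 promoter windows of that length, 17.8% held TGACG, 12.4% TATAAA and 32.7% GGGCGG on either strand, so each match is common. Of the 8 genes, 6 had an entry; Ret and Sox10 had none.

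No neuron or glia gene of the 8 passed the test between genotypes. Of the 13 probes, 9 could be tested, covering 7 genes, and 0 were called at a 5% false discovery rate (limma, Benjamini-Hochberg adjustment over 35351 probes), against 3.97% of all tested probes. That background share changed with the animals used. Leaving out control replicate 1 raised it to 5.83%. It was 0.219% when control replicate 2 was left out and 0.275% when control replicate 3 was. Dropping knockout replicate 1 gave 0.741%, and dropping knockout replicate 3 gave 0.126%. None of these fits called a member. The direction was mostly downward, with 7 of the 9 tested probes lower in the knockout, against 50% of all tested probes. Before adjustment, the probes of Sox10 and Vip, 2 of the 9, had a p under 0.05, as did 26.8% of all tested probes. With spots that the scanner software had marked as outliers kept in, 12 probes could be tested, 0 were called against 4.85% of all, and 11 of 13 were lower on average, against 48.8% of the 40172 probes so tested. All 3 knockouts lay below all 3 controls at 3 of the 13 probes, those of Uchl1, Vip and Sox10, where 17.6% of all probes showed this order. The knockout and control animals overlapped at the other 10 probes. In bulk tissue, fewer cells of a type and less RNA per cell cannot be told apart.

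**Figure D1:**
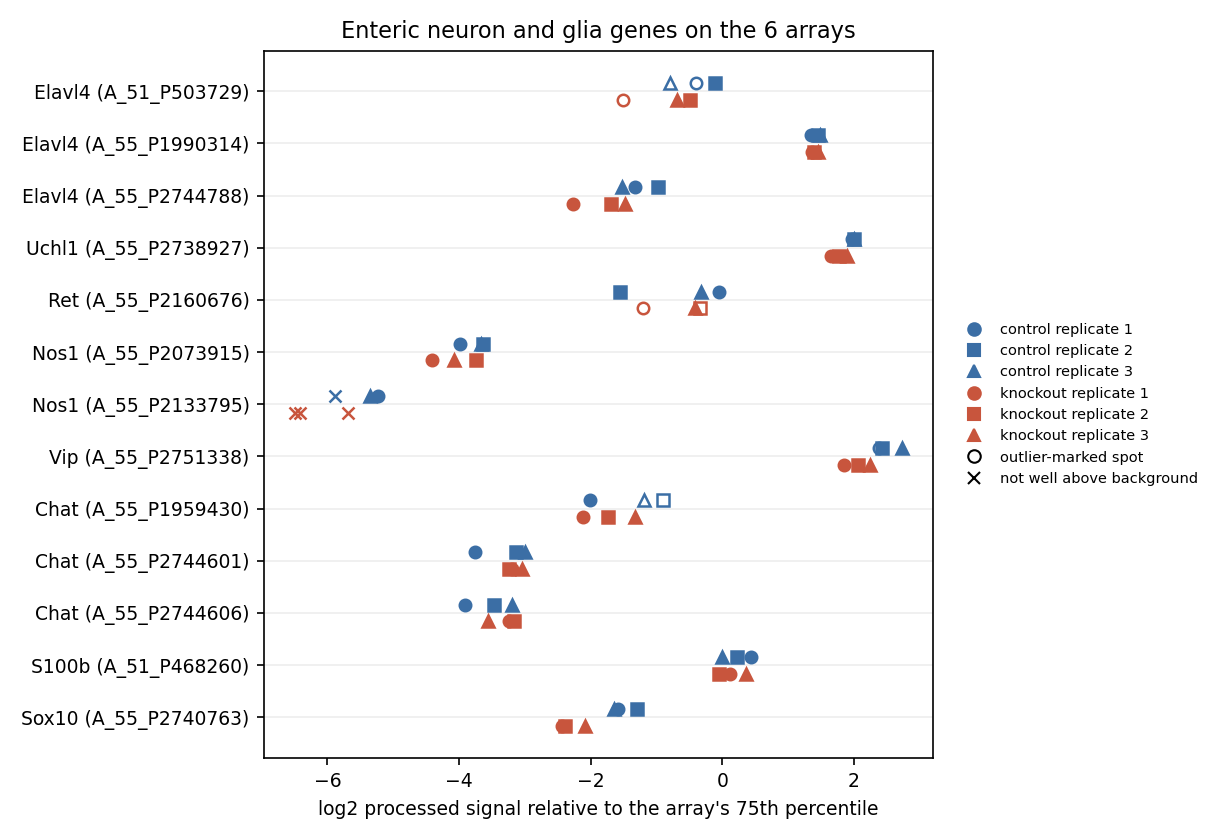
Log2 processed signal, scaled to the 75th percentile of its array (horizontal axis), at each of the 13 probes of the 8 genes, with 1 point per animal; open symbols are outlier-marked spots and crosses are spots not well above background. The 3 knockout points lie left of all 3 control points at Uchl1, Vip and Sox10 and among or beside them at the other 10 probes.

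Among the glial genes, Sox10 had the largest difference of the members tested. SOX10 is the transcription factor that marks glia and their neural crest precursors in the gut and that glia keep throughout life. Its probe (A_55_P2740763) read 2109, 2912 and 2083 signal units in the controls and 903, 1112 and 1369 in the knockouts. Relative to the 75th percentile these were -1.59, -1.29 and -1.65 against -2.44, -2.39 and -2.08. The groups did not overlap, and the gap between the lowest control and the highest knockout exceeded the spread among the 3 controls. The means were -1.51 ± 0.19 (SD, n = 3) and -2.30 ± 0.20 (SD, n = 3). The difference of -0.79 (SE 0.18, 95% interval -1.23 to -0.36) leaves the knockout at 57.7% of the control level, and limma's adjusted p of 0.0603 missed the threshold. With arrays weighted by their quality in limma the difference was -0.85 and the adjusted p 0.0181, the only fit of those run in which a member was called. That fit called 23% of all tested probes, against 3.97% in the main fit, so a call in it says little about Sox10 in particular. The exact two-sided permutation test gave p = 0.1, the smallest that 3 animals against 3 allow.

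S100b, a calcium-binding protein used to stain enteric glia, did not share that separation. Its probe (A_51_P468260) stood at 0.43, 0.22 and 0.00 in the controls and at 0.12, -0.05 and 0.36 in the knockouts. The animals were interleaved, with knockout replicate 3 above 2 of the 3 controls. The difference was -0.08 (SE 0.19, adjusted p = 0.825 by limma), and its 95% interval, -0.52 to 0.37, leaves room for a shift either way. Its sign turned when control replicate 1 (0.03) or knockout replicate 2 (0.02) was left out. The interval of Sox10 and that of S100b overlap, and the difference between these genes was not tested.

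**Figure D2:**
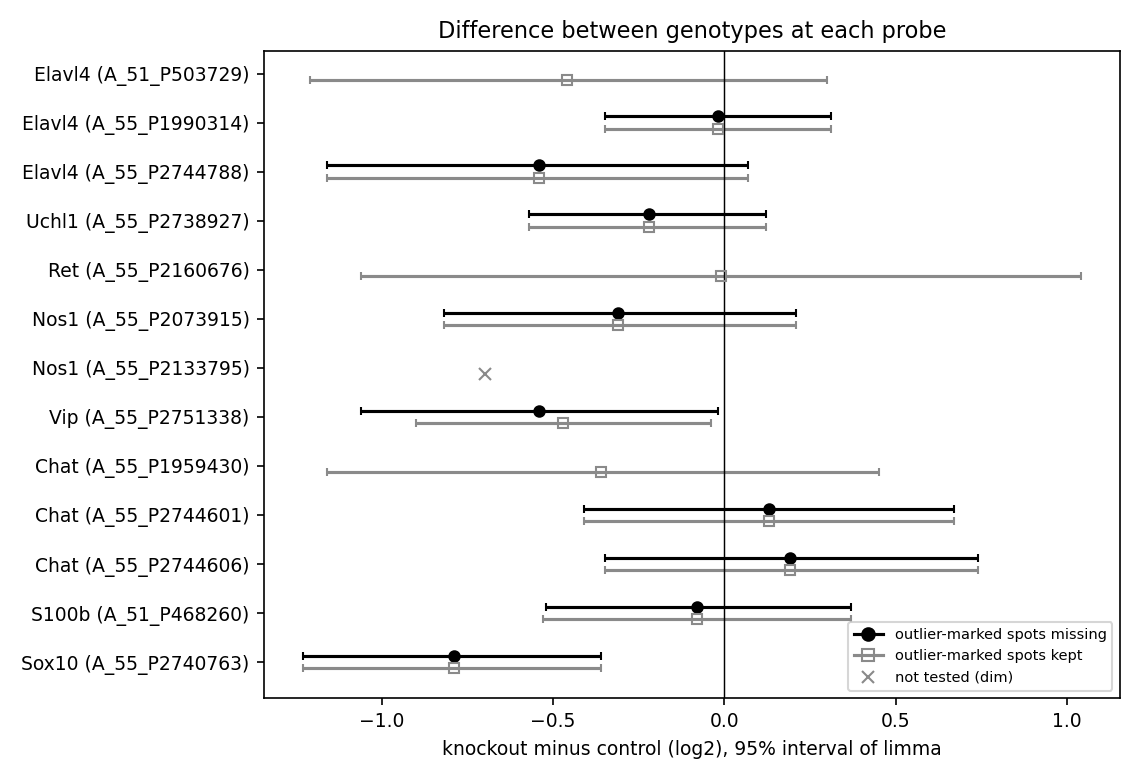
Difference between genotypes at each probe, knockout minus control on the log2 scale, with limma's 95% interval; filled circles omit outlier-marked spots and open squares keep them. Only the intervals of Vip (-1.06 to -0.02) and Sox10 (-1.23 to -0.36) exclude 0 before adjustment, and the dim Nos1 probe, drawn as a cross, has no interval.

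Vip encodes vasoactive intestinal peptide, a transmitter of inhibitory motor neurons and of neurons that drive secretion. Its probe (A_55_P2751338) read 33187, 38395 and 43710 signal units in the controls, the first an outlier-marked spot, and 17657, 24309 and 27221 in the knockouts. Relative to the 75th percentile the values were 2.39, 2.43 and 2.74 in the controls and 1.85, 2.06 and 2.24 in the knockouts. Every knockout lay below every control, also below the marked spot. Without that spot the means were 2.59 ± 0.22 (SD, n = 2) and 2.05 ± 0.20 (SD, n = 3). The difference was -0.54 (SE 0.21, 95% interval -1.06 to -0.02, adjusted p = 0.175 by limma), or 1.45-fold lower. With it the difference was -0.47 (SE 0.18, adjusted p = 0.154 by limma), and the exact two-sided permutation test gave p = 0.1.

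Nos1 encodes neuronal nitric oxide synthase, the enzyme of the same inhibitory motor neurons that makes their gaseous transmitter. The brighter of its 2 probes (A_55_P2073915) stood at -3.99, -3.64 and -3.67 in the controls and at -4.41, -3.74 and -4.07 in the knockouts. Knockout replicate 2 lay above control replicate 1, so the groups overlapped. The difference was -0.31 (SE 0.22, 95% interval -0.82 to 0.21, adjusted p = 0.403 by limma). The other probe (A_55_P2133795) was well above background in 2 of 3 controls (169 and 159 signal units, with 120 in the third) and in no knockout (54, 113 and 68 units). It was not tested, and set against the dimmest signals that counted as above background it was at least 1.01-fold lower in the knockout, which is hardly a bound at all.

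Chat encodes choline acetyltransferase, which makes acetylcholine, the transmitter of excitatory motor neurons. Its 3 probes had differences of either sign, none of them distinct from 0, and whether the probes differ from each other was not tested. One (A_55_P2744601) stood at -3.75, -3.13 and -3.00 in the controls and at -3.20, -3.24 and -3.05 in the knockouts, a difference of 0.13 (SE 0.23, 95% interval -0.41 to 0.67, adjusted p = 0.746 by limma). Another (A_55_P2744606) stood at -3.91, -3.47 and -3.19 against -3.24, -3.17 and -3.56, a difference of 0.19 (SE 0.23, 95% interval -0.35 to 0.74, adjusted p = 0.621 by limma). At both probes control replicate 1 was the lowest animal, and the other controls fell among or just beside the knockouts. The difference of the first turned negative without control replicate 1 (-0.10) and with array weights (-0.01). The third (A_55_P1959430) had outlier marks on 2 control spots and was tested only with them kept: it stood at -2.01, -0.90 and -1.19 against -2.11, -1.74 and -1.33, a difference of -0.36 (SE 0.34, adjusted p = 0.531 by limma).

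Uchl1 encodes a ubiquitin hydrolase, known as PGP9.5, that stains nearly all enteric neurons. Its single probe (A_55_P2738927) read 25056, 28599 and 26373 signal units in the controls and 15468, 19883 and 21538 in the knockouts, before the arrays were scaled. Relative to the 75th percentile it stood at 1.98, 2.01 and 2.01 in the controls and at 1.66, 1.77 and 1.90 in the knockouts. The controls lay close together and every knockout was below them. The difference was small, -0.22 (SE 0.14, 95% interval -0.57 to 0.12, adjusted p = 0.357 by limma), and left the knockout at 85.6% of the control level. The exact two-sided permutation test gave p = 0.1.

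Elavl4 encodes HuD, an RNA-binding protein found in neurons. Its 3 probes name different RefSeq transcripts of the gene. The brightest (A_55_P1990314) stood at 1.35, 1.45 and 1.49 in the controls and 1.37, 1.40 and 1.46 in the knockouts. The animals were interleaved within a narrow range, and the difference was -0.02 (SE 0.14, 95% interval -0.35 to 0.31, adjusted p = 0.946 by limma). Another probe (A_55_P2744788) stood at -1.32, -0.97 and -1.53 against -2.27, -1.69 and -1.48. Knockout replicate 3 lay among the controls and the other 2 knockouts below them, for a difference of -0.54 (SE 0.26, 95% interval -1.16 to 0.07, adjusted p = 0.23 by limma). The third probe (A_51_P503729) had 3 outlier-marked spots; with them kept it stood at -0.40, -0.11 and -0.80 against -1.51, -0.49 and -0.68, a difference of -0.46 (SE 0.32, adjusted p = 0.39 by limma). The intervals of these probes overlap, and whether they differ from each other was not tested.

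Ret encodes the receptor tyrosine kinase through which GDNF-family ligands guide the precursors of enteric neurons. Its single probe (A_55_P2160676) stood at -0.05, -1.56 and -0.32 in the controls and at -1.20, -0.34 and -0.41 in the knockouts, where the first 2 knockout values are outlier-marked spots. One animal of each genotype was well below the other 2. The probe was not tested with the marked spots missing, since 1 knockout value remained. With them kept the means were -0.64 ± 0.81 and -0.65 ± 0.48 (SD, n = 3 each), a difference of -0.01 (SE 0.44, adjusted p = 0.99 by limma). The standard error is the widest of the members, so this probe could not show a difference of the size seen for Sox10.

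Across the members, knockout replicate 1 was the lowest of the 6 animals at 8 of the 13 probes and control replicate 2 the highest at 5. How often each held over all probes is not given here, so these counts cannot be read as particular to the members. Knockout replicate 1 also had the lowest 75th percentile and the most outlier-marked spots, 16% against 3.26% to 13.6% on the other arrays, and the part of these in the results was not tested. Over the alternative settings and left-out animals, Sox10 ranged from -0.91 to -0.64 in 14 fits, Vip from -0.73 to -0.40 in 12, Uchl1 from -0.39 to -0.16 in 14, the brighter Nos1 probe from -0.47 to -0.14 in 14 and the Elavl4 probe A_55_P2744788 from -0.71 to -0.32 in 14, and none of these changed sign. The differences of the brightest Elavl4 probe lay between -0.13 and 0.03.

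To see which genes followed the members from animal to animal, each member with a probe unmarked and well above background on all 6 arrays was correlated with 17118 probes measured equally well. These are descriptions over 6 arrays, which include the difference between genotypes and share each array's scaling, and with so many probes very high coefficients are found for any pattern. Closest to Sox10 were Apba1 (Pearson's r 0.999), Trim47 (0.996) and Nol3 (0.995). Closest to Uchl1 were Arl8a (0.995), Dusp1 (0.993) and Cpxm2 (0.993), and closest to Nos1 were S1pr3 (0.996), 1700023D09Rik (0.996) and Cdk5rap2 (0.995). These 9 genes were themselves lower in the knockout on average, with differences of -1.03 to -0.25 on the log2 scale. Closest to Elavl4 were Frmpd1os (0.997), Nrsn2 (0.996) and Sumo2 (0.995). Closest to Chat were Ccdc97 (0.997), Gm17778 (0.994) and Gm15348 (0.993), and closest to S100b were Gstm4 (0.988) and Gstm1 (0.977). None of the genes nearest to one member was among the nearest to another.

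A wider set of 125 genes of enteric neurons, glia and the pathways that form them placed the members in context. Of the 110 with a tested probe, 82 (74.5%) were lower in the knockout, where 48.8% of the 16451 named genes were. Their median difference was -0.42, against 0.01 over all named genes, and for the 7 members tested it was -0.22 with 6 lower. At the brightest probe of each gene 6 passed the test lower and 1 higher, 6.36% in all, against 3.82% of all named genes (2.47% lower and 1.35% higher). Before adjustment, 39 lower genes and 7 higher ones of the 110 had a p under 0.05, where 14.5% of all named genes did so lower and 13.7% higher.

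**Figure D3:**
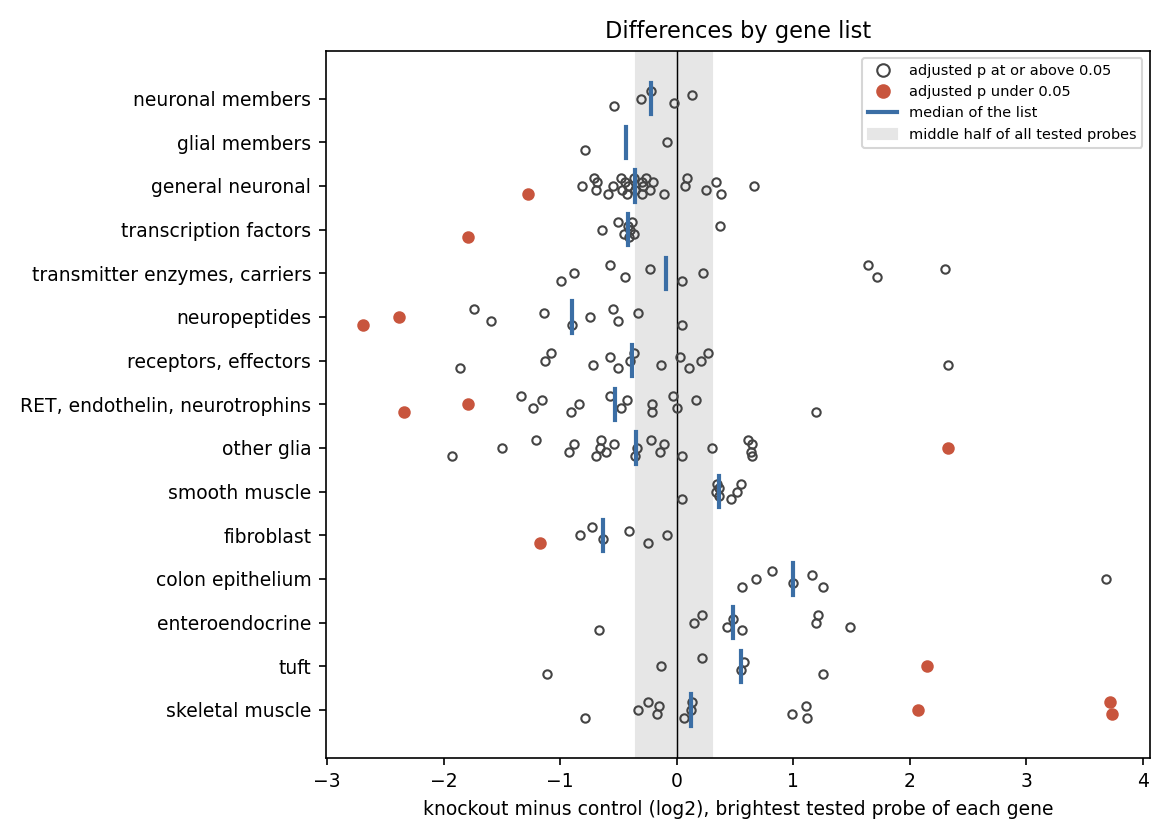
Difference between genotypes, knockout minus control on the log2 scale, for the brightest tested probe of each gene, grouped by gene list; filled points have an adjusted p under 0.05, the blue bar is the list median and the grey band runs from the lower to the upper quartile of all tested probes (-0.35 to 0.30). The neuropeptide list has the lowest median (-0.90) of the lists shown in this fit, and 2 of its genes, Npy and Calca, are filled.

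Neuropeptides other than Vip had 10 of 11 tested genes lower and a median of -0.90, the lowest of the neuron, glia and pathway lists (-1.47 when knockout replicate 2 was left out). Npy encodes neuropeptide Y, made by enteric neurons and by sympathetic fibres, and read 2406, 4880 and 3984 signal units in the controls and 257, 417 and 900 in the knockouts. It was 6.47-fold lower (difference -2.69, SE 0.44, adjusted p = 0.0355 by limma). Calca, which encodes calcitonin and the sensory peptide CGRP, read 2208, 4159 and 3408 against 226, 790 and 700 and was 5.19-fold lower (difference -2.38, SE 0.44, adjusted p = 0.0438 by limma). Both genes kept all knockouts below all controls. Among those that did not pass, Pdyn differed by -1.74, Gal by -1.14 and Penk by -0.50, and Tac1, which encodes the contractile peptide substance P, by 0.05. The genes behind the receptors and effectors of these transmitters included none that passed (5 had an unadjusted p under 0.05 by limma): 9 of 14 were lower, with a median of -0.39 (-0.19 when knockout replicate 1 was left out). Gucy1b1, a subunit of the guanylate cyclase that senses nitric oxide, differed by -1.13 (SE 0.31, adjusted p = 0.0808 by limma) and the serotonin receptor subunit Htr3b by -1.08 (SE 0.35, adjusted p = 0.114 by limma), both with all knockouts below all controls, and Htr4, another serotonin receptor, by 0.27 (SE 0.17, adjusted p = 0.341 by limma). Vipr1, a receptor for the Vip peptide that epithelium also carries, differed by 2.33 (SE 0.71, adjusted p = 0.101 by limma), and Vipr2, the other receptor, by -0.57 (SE 0.28, adjusted p = 0.247 by limma).

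Of the enzymes and carriers of other transmitters, 5 of 10 tested genes were lower, the median was -0.09 (-0.39 to 0.04 with 1 animal left out) and 0 passed (6 had an unadjusted p under 0.05 by limma). Slc18a3, the carrier that loads acetylcholine into vesicles and whose gene lies inside that of Chat, had the lowest p of this list. It stood at -0.67, -0.21 and -0.14 in the controls and at -1.70, -1.09 and -1.20 in the knockouts, a difference of -0.99 (SE 0.23, adjusted p = 0.0639 by limma). All its knockouts lay below its controls, which was not so at any of the 3 Chat probes. Dbh, which makes noradrenaline, differed by -0.88 (SE 0.32, adjusted p = 0.139 by limma). In the other direction Gad2, well above background in 2 of 3 controls, differed by 1.72 (SE 0.47, adjusted p = 0.0814 by limma) and Slc6a4, the serotonin transporter that epithelium also carries, by 2.30 (SE 0.67, adjusted p = 0.103 by limma).

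General neuronal genes, which encode the cytoskeleton and the release machinery shared by most neurons, were lower at 21 of 27 tested genes, with a median of -0.36 (-0.21 when knockout replicate 1 was left out). The list's summed level, the sum over its genes of signal divided by the array's 75th percentile, was 52.7 to 60.9 in the controls and 52.2 to 55.5 in the knockouts. These ranges overlap, while for the 6 neuronal members they were 13 to 14.8 against 10.1 to 12.4 and did not. The sum gives most weight to bright genes such as Vip. The mean log2 value of the same 6 genes was -0.06 to 0.18 in the controls and -0.47 to -0.04 in the knockouts, which overlap. For the general neuronal list it was -0.24 to -0.06 against -0.65 to -0.24, which meet. Whether the 2 lists differ was not tested. Of the transcription factors of enteric neurons and their precursors, 9 of 10 tested genes were lower (median -0.41). Tbx2, a T-box factor that other cells of the gut wall also make, read 3122, 4807 and 3329 against 650, 962 and 1084 signal units. It was 3.45-fold lower (difference -1.79, SE 0.21, adjusted p = 0.0227 by limma).

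The ligands, receptors and partners of RET and of endothelin signalling, which sustains the precursors alongside RET, were lower at 13 of 16 tested genes, with a median of -0.52. Ednrb, the endothelin receptor whose loss in mice leaves the distal colon without neurons, read 14786, 10998 and 11911 signal units in the controls and 899, 2960 and 3160 in the knockouts. It was 5.05-fold lower (difference -2.34, SE 0.44, adjusted p = 0.0441 by limma). Artn encodes artemin, a ligand of the GDNF family, and was 3.46-fold lower (difference -1.79, SE 0.34, adjusted p = 0.0441 by limma), at 2864, 4394 and 2780 against 437, 894 and 1211 units. Which cells of the colon made the Ednrb and Artn RNA was not tested. Gdnf, the main ligand of Ret in the gut, which muscle and other cells around the neurons supply, differed by -1.34 (SE 0.31, adjusted p = 0.0631 by limma), with all knockouts below all controls. Its co-receptor gene Gfra1 differed by -0.57 (SE 0.16, adjusted p = 0.0875 by limma), whereas Ret itself could not be tested with its marked spots missing.

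Glial and Schwann cell genes other than the 2 members went both ways, with 15 of 22 tested genes lower, a median of -0.35 (-0.21 when control replicate 1 was left out) and a range of -1.93 to 2.33. Gfap, the intermediate filament of glia, differed by -0.92 (SE 0.43, adjusted p = 0.225 by limma) with overlapping groups. The 1 gene that passed at its brightest probe was Erbb3, a neuregulin receptor of Schwann cells that epithelium also makes. It read 172, 66 and 92 signal units in the controls, of which only the first was well above background, and 437, 430 and 392 in the knockouts (difference 2.33, SE 0.38, adjusted p = 0.0363 by limma). Pmp22, another myelin gene that many cell types express, passed at its dimmer probe (1.73, SE 0.27, adjusted p = 0.0471 by limma) and not at its brighter one (0.65, SE 0.18, adjusted p = 0.0814 by limma). The summed level of the glial list was 18.3 to 20.5 in the controls and 22.5 to 23.8 in the knockouts, the opposite direction to its median. Of this, Pmp22 alone made up 4.68 to 6.38 in the controls and 8.28 to 9.72 in the knockouts, and the other 21 genes gave 13.6 to 14.2 against 14 to 15.6, which overlap. For the 2 glial members it was 1.32 to 1.68 against 1.16 to 1.52.

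**Figure D4:**
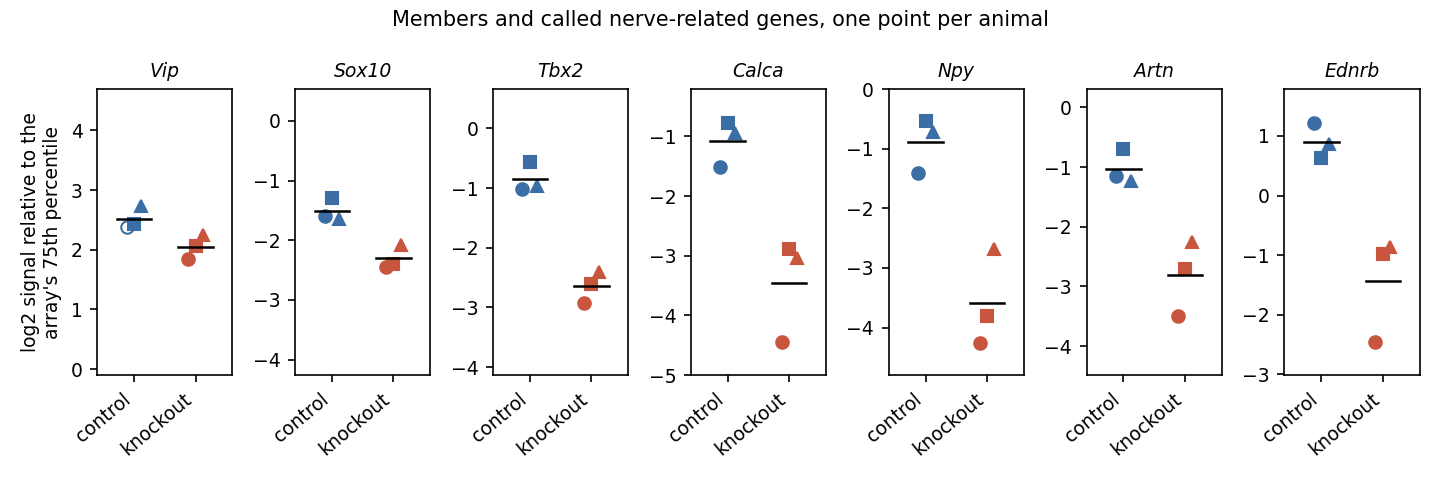
Log2 processed signal, scaled to the 75th percentile of its array (vertical axis), of the members Vip and Sox10 and of 5 other genes. The 5 are those of the wider neuron, glia and pathway lists that passed the test lower and were well above background on all arrays. Points are animals, the open point an outlier-marked spot kept here, and bars group means. The vertical axes span the same number of log2 units, and the drop from control to knockout is larger for Npy (-2.69), Calca (-2.38) and Ednrb (-2.34) than for Sox10 (-0.79) and Vip (-0.54 without the marked spot).

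Leaving out animals 1 at a time ended most calls of these wider genes, while their direction held in each fit that could be made (for the dimmer Pmp22 probe, 2 of 6). The differences stayed large: Npy ranged from -3.14 to -2.36, Calca from -2.66 to -1.88, Ednrb from -2.62 to -1.83, Artn from -2.07 to -1.45, Tbx2 from -1.90 to -1.64 and Erbb3 from 1.97 to 2.74. With control replicate 1 left out, the limma adjusted p was 0.0535 for Artn and 0.0599 for Ednrb. When control replicate 2 was dropped it was 0.0971 for Npy, 0.12 for Calca, 0.103 for Ednrb, 0.124 for Artn, 0.0638 for Tbx2 and 0.0792 for Erbb3. Omitting control replicate 3 gave 0.0966 for Npy, 0.115 for Calca, 0.111 for Ednrb, 0.103 for Artn, 0.0629 for Tbx2 and 0.0985 for Erbb3. Among the knockouts, the fit lacking replicate 1 gave 0.0733 for Npy, 0.054 for Calca, 0.0689 for Artn, 0.0868 for Erbb3 and 0.07 for the dimmer Pmp22 probe. The fit lacking replicate 2 gave 0.0547 for Npy, 0.0505 for Ednrb, 0.0633 for Artn and 0.0536 for Erbb3. The fit lacking replicate 3 gave 0.0521 for Npy, 0.0873 for Calca, 0.0821 for Ednrb, 0.0729 for Artn, 0.0562 for Tbx2 and 0.0853 for Erbb3.

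Markers of the other cell types in the colon wall also differed between the genotypes. All 8 tested smooth muscle markers were higher in the knockout and none passed (median 0.36, 2 with an unadjusted p under 0.05 by limma), and the summed level of the 10 listed was 48.6 to 60.1 in the controls and 66.5 to 77.3 in the knockouts, with every marker well above background on all arrays. All 7 tested epithelial markers were higher (median 1.00, or 0.52 to 1.52 with 1 animal left out; none passed, 1 with an unadjusted p under 0.05 by limma), with summed levels of 24.4 to 73.5 against 81.8 to 109. All 7 tested fibroblast markers were lower (median -0.63), with summed levels of 40.4 to 47.8 against 24.4 to 34, and Pdgfrb, a receptor of fibroblasts and pericytes, passed (-1.17, SE 0.20, adjusted p = 0.0395 by limma). Enteroendocrine markers, which share peptides and secretory genes with neurons, were higher at 8 of 9 tested genes (median 0.48, or 0.26 to 0.99 with 1 animal left out; none passed and none with an unadjusted p under 0.05 by limma), with overlapping summed levels of 7.11 to 22.8 and 14.4 to 26.5. Tuft cell markers, whose cells also make acetylcholine through Chat, were higher at 5 of 7 tested genes with summed levels of 6.64 to 8.33 against 5.6 to 7.8, and Trpm5 passed (2.15, adjusted p = 0.0251 by limma). Skeletal muscle genes, whose motor nerves lie outside the gut plexus, were higher at 9 of 14 tested genes. Their summed levels were 5.14 to 6.47 against 11.2 to 15.8. Myh1 (2.07), Tnni1 (3.72) and Myh2, well above background in no control, passed. The skeletal muscle list was taken from earlier results of these same data, so its direction and calls are not independent of that choice. Of the 5 listed genes of the interstitial cells of Cajal, the pacemakers of the gut, 2 were tested and both were lower (Etv1, also on the list of neuronal transcription factors, by -0.40, and Gja1 by -1.57 at its brightest probe). A dimmer Gja1 probe passed lower (adjusted p = 0.00848 by limma) with no knockout well above background. With outlier spots kept, the 3 untested genes differed by 1.45 (Thbs4), 0.22 (Ano1) and -0.44 (Kit), and the summed level of the 5 was 8.75 to 12.6 in the controls and 11.7 to 14.7 in the knockouts, which overlap. Medians of 3 further lists depended on the animals used: with each animal left out in turn, that of B cells ran from -1.29 to -0.15, that of adipocytes from -0.65 to 2.19 and that of melanocytes from -0.03 to 0.49. The part of these markers in the differences of the neuron and glia genes was not tested.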

How the data were processed

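Colon RNA of 6 male mice was hybridised to 1 array each; groups follow the genotype in the labels. The deposited values are intensities, the red processed signal of Agilent Feature Extraction 11.5.1.1, background-subtracted and unscaled between arrays, per the file headers; the submitters' processing notes name version 10.7, and the labels name Cy3 and a green column. The series' value table held the same intensities as deposited (log2 correlation 0.999999 with each array; medians 489 to 825) and served as an alternative.

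Signals were converted to log2 and each array's 75th percentile over 59305 non-control spots was subtracted. Spots marked as non-uniform or population outliers were missing. Probes well above background on all 3 arrays of a group, with at least 2 usable values in each group, were tested: 35351 of 56605. No spot was saturated. The genotype effect was fitted in limma 3.58.1 (lmFit, then eBayes, in R 4.3.3), two-sided, with Benjamini-Hochberg adjustment at 5%; standard errors and intervals are limma's. Single values also had an exact permutation test over the 20 splits, with outlier spots kept. A lower bound sets the brighter group's mean against the higher of the dim probe's own signal and the lowest signal well above background, per array. The procedure was tested on simulated data. The number of arrays limits the precision, and p-values measure the spread between these animals only.

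Probes were named through RefSeq accessions in the annotation of GRCm38.p6; 33767 probes had a name. The brightest tested probe stood for a gene in lists. All member probes are given; in each wider list the genes that passed, otherwise those with the lowest p in each direction, and the 3 genes correlated most highly with a member; some genes that these rules name are not reported here. Further genes named in the lists (Pdyn, Gal, Penk, Tac1, Vipr2, Gdnf, Gfra1, Gfap, the dimmer Pmp22 probe, the genes of the interstitial cells of Cajal) were chosen after their values were seen. The members and lists were chosen with earlier results of these data known, and the skeletal muscle list came from those results.

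Alternatives were outlier spots kept, normexp (offset 50), quantile scaling, median centring, no filter, well above background on all 6 arrays, array weights, the value table, each animal left out and, for lists, the lowest-p probe. Normexp used the median spot signal in place of the planned mean, as the columns read here give the median.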

Additional observations from a re-analysis of the deposited data

How the results depend on the processing

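Of the 8 members none was called in the main setting or under any alternative except array weights, which called 1 (Sox10) and 23% of all tested probes. The number of probes called over the whole array, 1403, was 2558 with normexp background correction, 2181 with quantile normalization, 2249 with median centring, 484 with no filter on dim probes and 8119 with array weights; leaving out 1 animal gave 40 (without knockout replicate 3) to 2114 (without control replicate 1). Of the calls 39.1% were higher in the knockout, against 51.1% with normexp, 50.7% with array weights, 55.1% without control replicate 1 and 10% to 34.4% without the other animals. With no filter, adjusted p by limma was 0.0557 for Npy, 0.068 for Calca, 0.0684 for Ednrb, 0.0682 for Artn, 0.0563 for Erbb3 and 0.0742 for the dimmer Pmp22 probe, which was also not called with outlier spots kept (0.0565). Differences near 0 changed sign. Chat A_55_P2744601 was -0.01 with array weights and ran from -0.10 (control replicate 1 left out) to 0.28 (control replicate 3 left out). S100b ran from -0.19 (control replicate 3 left out) to 0.03 (control replicate 1) and was 0.02 when knockout replicate 2 was left out. Elavl4 A_55_P1990314 was 0.03 with normexp and 0.01 with median centring and with the series value table; with 1 animal left out it ran from -0.06 to 0.01. The median of the neuropeptide list was -1.28 with the lowest-p probe for each gene and -1.47 when knockout replicate 2 was dropped; that of transmitter enzymes was -0.39 with control replicate 1 dropped and -0.26 with knockout replicate 3 dropped. The receptor median was -0.18 with array weights and -0.19 when knockout replicate 1 was dropped, and the general neuronal median was -0.21 in the latter fit. With outlier spots kept the neuropeptide median was -0.73 and that of fibroblast markers -0.78. The cause of these shifts was not tested. No paired analysis was possible because the labels give the animals no numbers shared between the genotypes. Outlier marks fell on 8 of the spots of the members, so Ret and 1 probe each of Elavl4 and Chat rest on marked spots, and the second Nos1 probe was too dim to compare.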
